A study of Mus musculus with 11 samples.

Results

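Levels of 37 mouse genes that astrocytes raise in reactive states, or that act in the STAT3 pathway, were examined in dissected corpus callosum and in cultured neurospheres. The genes were taken by symbol from a list that leaves out Gfap and the complement genes, chosen with earlier results of these data known. All 37 were found among the 24411 gene symbols counted. They comprised 9 genes raised by several kinds of injury (pan-reactive), 4 linked to inflammation, 12 linked to ischaemia, 4 of the STAT3 pathway, and 8 genes of the matrix, annexin, S100 and growth-associated kind. The 11 RNA-seq libraries fell into 4 groups: callosum labelled Bmal1-/- (n = 2), wild-type callosum (n = 3), neurospheres labelled Bmal1-/- (n = 3) and wild-type neurospheres (n = 3). Bmal1, listed as Arntl, encodes the partner of CLOCK in the circadian clock. The mice were 8 to 10 weeks old. Neurospheres are floating clusters of stem and progenitor cells. They were grown here from dissociated cells of the subventricular zone (SVZ) for 1 week, with EGF at 20 ng/ml and heparin at 2 ug/ml. The labels leave unsaid in which cells the gene was removed, at what time of day tissue was taken, and whether replicates are separate animals or cultures. If they are not, the p-values capture technical spread only.

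Astrocytes respond to injury, inflammation and demyelination by changing their shape and gene expression. Cytokines of the IL-6 family bind receptors that share the chain gp130, Janus kinases then phosphorylate STAT3, and STAT3 enters the nucleus and activates genes that include its own inhibitor SOCS3. STAT3 is a main driver of astrocyte reactivity in the injured central nervous system. Many of the 37 genes are also expressed by microglia, endothelial cells, fibroblasts or progenitors, so their RNA in whole tissue need not come from astrocytes.

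Gene counts summed to 17513165 to 17836955 per callosum library and 17450270 to 19717848 per neurosphere library. A gene with no count may still lie at up to 3 counts per library, 0.152 to 0.172 CPM (counts scaled to library size). Such floors cover counting error only. Arntl itself was not lower in either set labelled Bmal1-/-, at 26.9 and 33.4 CPM against 26.8 to 32.2 CPM in wild-type callosum, and at 47.9 to 57.0 CPM against 45.0 to 57.7 CPM in wild-type neurospheres. Since a deletion of some exons may leave the total of a gene as it was, Arntl gives no check of the labels, and directions below are those of the libraries as labelled. Neurosphere library 1 labelled Bmal1-/- stood apart. Its median log2 deviation from the other 5 neurosphere libraries was 0.917 for 531 genes whose longest transcript is under 1000 bases, and -0.784 for 3221 genes over 5000 bases. The same medians in the other neurosphere libraries lay between -0.253 and -0.00385 for short genes and between 0.115 and 0.217 for long genes. Unmapped reads were 22.6% of that library and 13.7% to 16.2% of the other neurosphere libraries.

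In the callosum, 4 of the 30 genes tested were called higher in the libraries labelled Bmal1-/- and 0 were called lower. They were the protease inhibitor gene Serpina3n, the asparaginase gene Aspg, the transcription factor gene Stat3 and S100a6, which encodes a calcium-binding protein. A gene was called when its adjusted p, from edgeR's quasi-likelihood test over all genes, was under 0.05. Over all 14198 genes tested in the callosum 0.909% were called, 0.521% as higher and 0.387% as lower. An unadjusted p under 0.05 was reached by 11 of the 30, of which 10 were higher. Of all 14198 genes 13.9% reached it, 919 higher and 1050 lower. The log2 fold change was above 0 for 20 of the 30 and below 0 for 10, with a median of 0.27, against -0.01 over all genes. The 2 libraries labelled Bmal1-/- did not overlap the 3 wild-type libraries for 17 of the 30 genes (56.7%), 15 of them higher and 2 lower. Of all genes 32.5% did not overlap, 15.1% higher and 17.4% lower. In whole tissue, a change in the number of cells of a type and a change in RNA per cell cannot be told apart. With 1 library left out, 1 to 3 of the genes tested were called. These were Serpina3n and Aspg without wild-type library 1, Serpina3n and S100a6 without wild-type library 2, and Serpina3n alone (1 gene) without wild-type library 3 or library 1 labelled Bmal1-/-. Without library 2 labelled Bmal1-/- they were Serpina3n, Aspg and S100a10, the last not called with all 5 libraries. Over all genes 107, 73 and 27 were called without wild-type library 1, 2 and 3. Without either library labelled Bmal1-/-, that group is 1 sample, which the fit assumes to vary like the wild-type libraries.

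**Figure D1:**
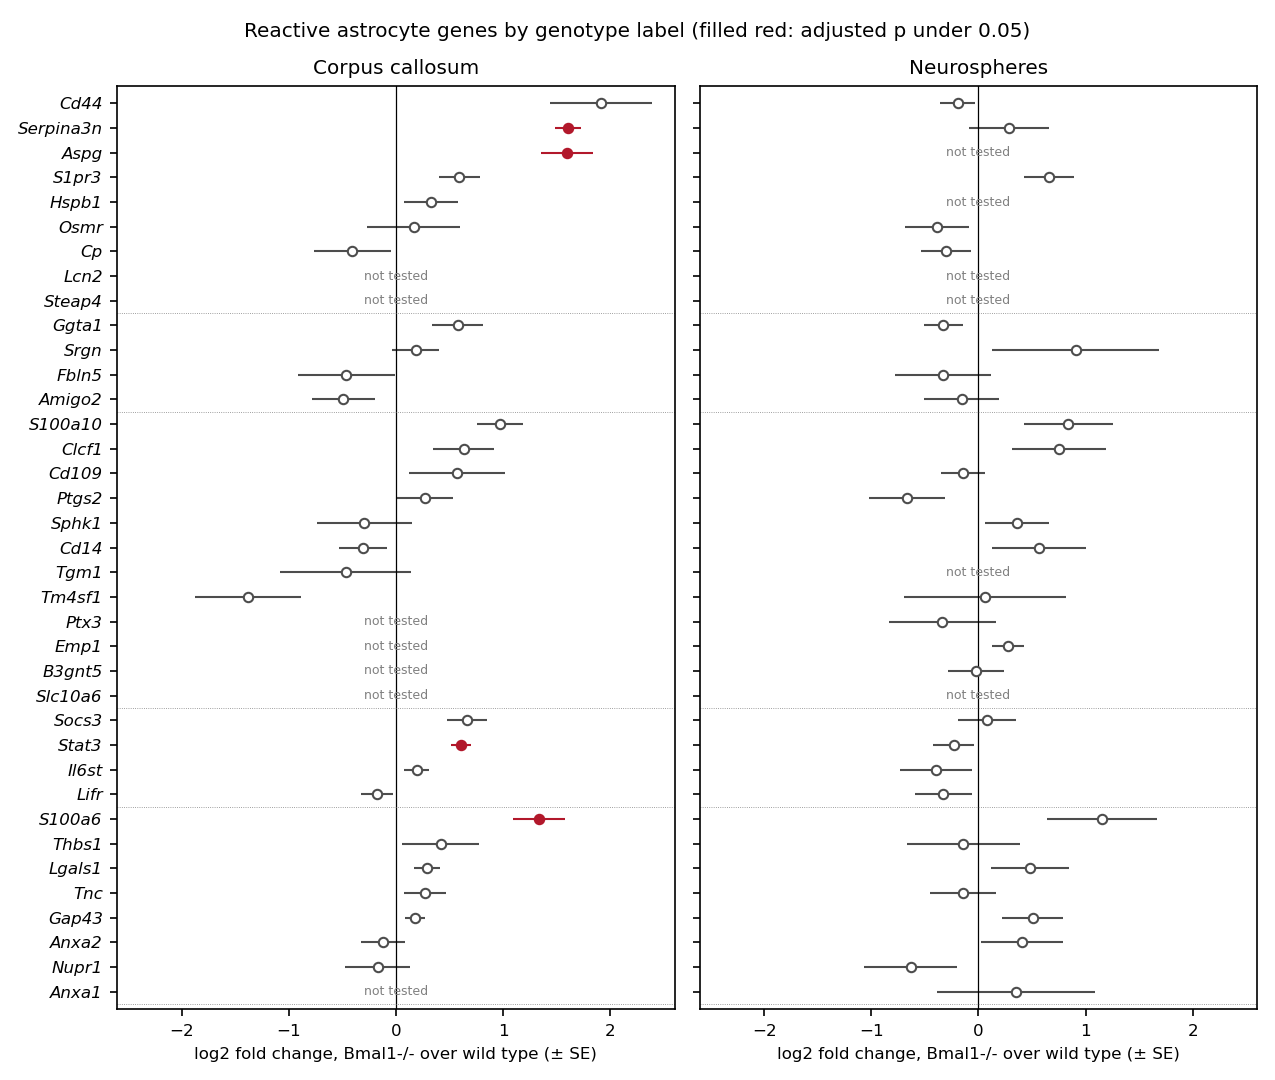
Log2 fold change of each gene, libraries labelled Bmal1-/- over wild type, with bars of 1 standard error, in the callosum and in neurospheres, grouped by role. In the callosum 4 genes were called higher (Serpina3n, Aspg, Stat3 and S100a6), and in neurospheres 0 were called.

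The promoters of the 4 called genes and of Socs3 are shown first, since STAT3 and BMAL1 bind DNA at known forms of sequence. Each window runs from 250 bases before to 50 bases after an annotated start (RefSeq, GRCm38.p6), 5' to 3' on the gene's strand, and capitals mark a match to the STAT site form TTCNNNGAA or to the E-box CACGTG. Both forms read the same on either strand and do not overlap each other here.
Serpina3n, chr12:104406458-104406757, plus strand: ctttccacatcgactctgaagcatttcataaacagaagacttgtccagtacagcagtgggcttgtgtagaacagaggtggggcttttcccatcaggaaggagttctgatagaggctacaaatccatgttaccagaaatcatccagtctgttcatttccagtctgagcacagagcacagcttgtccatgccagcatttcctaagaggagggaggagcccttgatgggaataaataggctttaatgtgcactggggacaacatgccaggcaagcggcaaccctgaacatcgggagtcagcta
Aspg, chr12:112106433-112106732, plus strand: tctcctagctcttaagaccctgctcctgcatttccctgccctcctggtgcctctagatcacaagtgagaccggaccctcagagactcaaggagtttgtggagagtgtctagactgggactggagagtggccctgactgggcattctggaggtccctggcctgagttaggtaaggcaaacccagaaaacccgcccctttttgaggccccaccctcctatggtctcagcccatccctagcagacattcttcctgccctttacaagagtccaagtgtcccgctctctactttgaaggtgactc
Stat3, chr11:100939491-100939790, minus strand: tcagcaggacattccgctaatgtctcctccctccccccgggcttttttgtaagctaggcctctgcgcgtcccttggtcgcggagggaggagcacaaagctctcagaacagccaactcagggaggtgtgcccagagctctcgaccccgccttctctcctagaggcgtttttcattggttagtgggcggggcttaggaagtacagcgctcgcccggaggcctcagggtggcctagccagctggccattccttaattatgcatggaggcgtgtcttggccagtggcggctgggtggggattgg
S100a6, chr3:90612644-90612943, plus strand: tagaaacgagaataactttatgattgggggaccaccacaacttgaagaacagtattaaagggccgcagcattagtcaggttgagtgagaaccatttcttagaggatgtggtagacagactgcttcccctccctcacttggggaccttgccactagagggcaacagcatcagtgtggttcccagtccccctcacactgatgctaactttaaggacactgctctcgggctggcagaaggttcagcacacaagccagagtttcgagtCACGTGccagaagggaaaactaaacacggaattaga
Socs3, chr11:117969317-117969616, minus strand: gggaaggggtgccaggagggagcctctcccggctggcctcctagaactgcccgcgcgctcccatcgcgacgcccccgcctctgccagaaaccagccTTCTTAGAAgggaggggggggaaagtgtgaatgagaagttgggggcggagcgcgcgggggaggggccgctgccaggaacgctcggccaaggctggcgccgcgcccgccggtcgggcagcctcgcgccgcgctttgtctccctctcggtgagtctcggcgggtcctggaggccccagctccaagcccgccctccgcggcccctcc
The windows of Serpina3n, Aspg and Stat3 held neither form. That of S100a6 held CACGTG beginning 14 bases past the start, and that of Socs3 held TTCTTAGAA, which begins at -154. Windows were found for 30 of the 37 genes (41 windows), and Clcf1, Thbs1, Lgals1, S100a10, Gap43, Cd109 and Cd14 had none. TTCNNNGAA occurred in the windows of 6 of those 30 genes (20.0%) and of 9.55% of all 27025 genes in the table. CACGTG occurred in 4 of the 30 (13.3%), namely S100a6, Ptgs2, Nupr1 and Sphk1, and in 8.09% of all genes. A match is a run of letters, not a site of binding.

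Among the pan-reactive genes, 2 of the 7 tested in the callosum were called higher, 6 of 7 had a log2 fold change above 0, and the median was 0.59. Serpina3n (chr12:104406646-104414334) encodes a secreted inhibitor of serine proteases and is a common marker of reactive astrocytes. It stood at 41.8 and 36.0 CPM in callosum labelled Bmal1-/-, against 12.5, 13.3 and 12.6 CPM in wild type. Both libraries labelled Bmal1-/- were higher than every wild-type library, and the wild-type libraries lay close together. This was a 3.04-fold difference, 1.60 ± 0.12 on the log2 scale (SE, edgeR adjusted p = 0.000402). The call held without each wild-type library in turn, at 1.59 to 1.64 on the log2 scale. Without library 1 or 2 labelled Bmal1-/-, 1 library was set against 3, its spread taken from wild type, and the values were 1.502 and 1.72, both called. It ended in a single model of all 11 libraries (1.59, adjusted p = 0.139).

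The Serpina3n count was checked against its neighbours, because mouse Serpina3 genes form a cluster of close copies and reads that map to several places were not counted. Of the 50-base stretches of Serpina3n, 6.90% also occur in transcripts of another gene, most often Serpina3e-ps (2.68%). The other 10 genes of the cluster had too few counts to test. Their summed level was 0 and 0.233 CPM in callosum labelled Bmal1-/-, against 0.0549 to 0.169 CPM in wild type, and 7 of the 10 had no count in any callosum library.

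Aspg (chr12:112106683-112127573) encodes an asparaginase. Its level was 14.0 and 9.28 CPM in callosum labelled Bmal1-/-, against 2.88, 4.23 and 4.39 CPM in wild type. The groups did not overlap, and the first library labelled Bmal1-/- was the highest of the 5. The log2 fold change was 1.60 ± 0.24 (SE, edgeR adjusted p = 0.0205). The call ended without wild-type library 2 (adjusted p = 0.0583), wild-type library 3 (0.118) or library 1 labelled Bmal1-/- (0.156), with log2 fold changes of 1.68, 1.71 and 1.28. Fitting all 11 libraries together ended it too (0.139).

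Cd44 encodes the receptor for hyaluronan in the matrix and marks fibrous and reactive astrocytes. Its level was 1.57 and 1.83 CPM in callosum labelled Bmal1-/-, against 0.169, 0.713 and 0.450 CPM in wild type, from 59 counts in all against 24. The groups did not overlap, but the lowest wild-type library held 3 counts, and the log2 fold change of 1.92 ± 0.48 (SE) did not pass (edgeR adjusted p = 0.125). S1pr3, a receptor for the lipid sphingosine 1-phosphate, stood at 14.4 and 10.2 CPM in callosum labelled Bmal1-/-, against 8.23, 9.22 and 7.04 CPM in wild type. These groups did not overlap either, although the gap between the nearest libraries was small (log2 fold change 0.59 ± 0.19, SE, edgeR adjusted p = 0.237).

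Osmr, the receptor chain for oncostatin M, stood at 1.11 and 1.32 CPM in callosum labelled Bmal1-/-, against 1.13, 1.54 and 0.563 CPM in wild type (log2 fold change 0.17 ± 0.43, SE, edgeR adjusted p = 0.890). Both libraries labelled Bmal1-/- lay within the spread of the wild-type libraries. Hspb1, a small heat shock protein gene, had a log2 fold change of 0.33, and Cp, which encodes the copper-carrying ferroxidase ceruloplasmin, one of -0.41, and neither passed. Cp overlaps Hps3 on the opposite strand, and the libraries were not stranded. Hspb1 shares 51.6% of its 50-base stretches with other transcripts, mainly the pseudogene Hsp25-ps1, so its count is uncertain. Lcn2, the secreted iron-siderophore carrier lipocalin-2, had 1 and 9 counts in callosum labelled Bmal1-/-, against 3, 2 and 3 counts in wild type. Steap4, a metalloreductase gene, had 0 and 2 counts against 5, 1 and 1 in wild type. Both were too low to test, so a difference in them was not detectable at this depth.

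**Figure D2:**
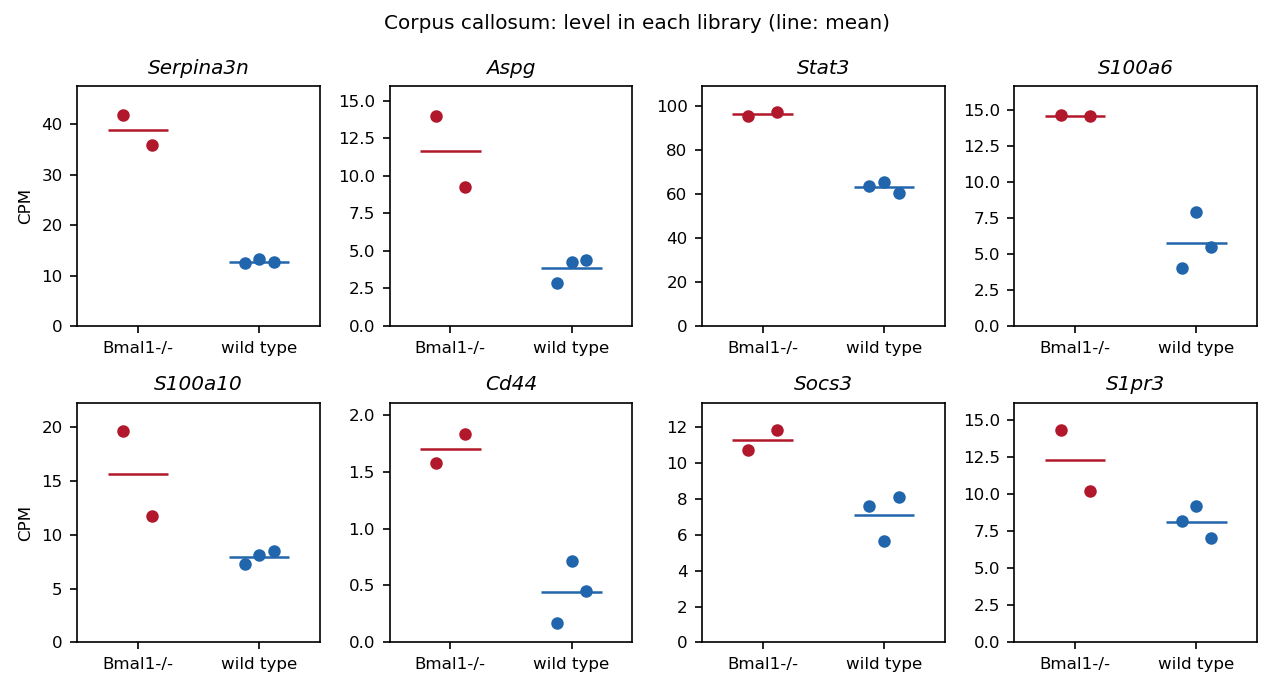
Levels in CPM of selected genes in every callosum library, libraries labelled Bmal1-/- to the left of wild type in each panel, with points for libraries and a line for each group's mean. Serpina3n lies at 41.8 and 36.0 CPM in callosum labelled Bmal1-/-, above the wild-type values of 12.5 to 13.3 CPM, and the 2 libraries labelled Bmal1-/- lie farther apart for Aspg (14.0 and 9.28 CPM) and S100a10 (19.7 and 11.7 CPM).

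Of the 4 STAT3 pathway genes, Stat3 was called higher in callosum labelled Bmal1-/-, 3 had a log2 fold change above 0 and 1 below, and the median was 0.40. Stat3 (chr11:100886806-100939594, minus strand) stood at 95.2 and 97.3 CPM in callosum labelled Bmal1-/-, against 63.5, 65.3 and 60.4 CPM in wild type. Both groups were tight and did not overlap, and the log2 fold change was 0.61 with an SE of 0.09 (edgeR adjusted p = 0.0225). Leaving out any 1 library ended this call (adjusted p = 0.0523 to 0.207), as did fitting all 11 libraries together (0.341), while the log2 fold change stayed between 0.58 and 0.64. An exon of Stat5a overlaps Stat3 on the opposite strand and the libraries were not stranded, so reads there could not be told apart. Stat5a itself averaged 2.98 CPM in callosum labelled Bmal1-/- and 2.87 CPM in wild type.

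Socs3, the inhibitor that STAT3 induces, stood at 10.7 and 11.9 CPM in callosum labelled Bmal1-/-, against 7.61, 5.65 and 8.11 CPM in wild type. The groups did not overlap, but the difference did not pass (log2 fold change 0.66 ± 0.19, SE, edgeR adjusted p = 0.179). Il6st, which encodes gp130, stood at 62.7 and 62.2 CPM against 50.2, 61.4 and 52.2 CPM in wild-type callosum. Here 1 wild-type library came close to those labelled Bmal1-/- (0.19 ± 0.12, adjusted p = 0.475). Lifr, the chain that pairs with gp130 to bind leukaemia inhibitory factor, stood at 12.3 and 9.96 CPM against 12.2, 13.0 and 12.6 CPM in wild-type callosum, and the groups overlapped (-0.18 ± 0.15, adjusted p = 0.625). Clcf1, a cytokine of the IL-6 family placed among the ischaemia-linked genes, stood at 2.27 and 2.12 CPM against 1.52, 1.59 and 1.13 CPM in wild-type callosum. Its groups did not overlap, and its log2 fold change of 0.63 ± 0.29 (SE) did not pass (edgeR adjusted p = 0.368).

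Beyond these genes, 58 further genes of the pathway were listed, with earlier results of these data known, and 50 were tested in the callosum. Bcl3 was called higher, 0 were called lower, 7 reached an unadjusted p under 0.05, all higher, and the median log2 fold change was 0.10. Of all 14198 genes 13.9% reached that p, 919 of them higher and 1050 lower. The number of pathway genes that did was thus close to the share over all genes in either direction, but all of them were higher. Bcl3, a nuclear partner of NF-kappaB and a target of STAT3, stood at 9.02 and 11.9 CPM in callosum labelled Bmal1-/-, against 1.64, 1.65 and 1.29 CPM in wild type (2.77 ± 0.22 on the log2 scale, edgeR adjusted p = 0.000451). The 2 ligand genes Il6 and Il31 had no count in any callosum library. Among kinases and STATs the smallest p was that of Tyk2 (0.35 ± 0.14, adjusted p = 0.312), among inhibitors that of Socs2 (0.42 ± 0.16, 0.310), and among receptor chains that of Il11ra1 (-0.06 ± 0.13, 0.851). Of the 18 STAT3 target genes tested, Bcl3 alone was called by edgeR, and 3 reached an unadjusted p under 0.05, all higher. The log2 fold change was above 0 for 14 of the 18 (77.8%), against 49.1% of all genes, with a median of 0.31. Summed over the 18, levels were 773 and 947 CPM in callosum labelled Bmal1-/- and 714 to 904 CPM in wild type, so the sums overlapped.

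In the group of matrix, annexin, S100 and growth-associated genes, S100a6 was called higher among 7 tested in the callosum, 5 had a log2 fold change above 0, and the median was 0.27. S100a6 (chr3:90612894-90614414), a small calcium-binding protein, stood at 14.6 and 14.6 CPM in callosum labelled Bmal1-/-, against 4.00, 7.90 and 5.46 CPM in wild type. The libraries labelled Bmal1-/- were level with each other and above all wild-type libraries, which spread among themselves. At 1.33 ± 0.24 on the log2 scale (SE, edgeR adjusted p = 0.0491) it lay at the edge of the threshold. The call ended without wild-type library 1 (adjusted p = 0.0508), wild-type library 3 (0.265), library 1 (0.229) or library 2 (0.102) labelled Bmal1-/-, and with all 11 libraries in 1 fit (0.585), with log2 fold changes of 1.14 to 1.63 over all alternatives.

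S100a10, the partner of annexin A2 on membranes and one of the ischaemia-linked genes, stood at 19.7 and 11.7 CPM in callosum labelled Bmal1-/-, against 7.27, 8.18 and 8.501 CPM in wild type. The groups did not overlap, and library 1 labelled Bmal1-/- stood well above library 2. The log2 fold change of 0.97 ± 0.22 (SE) did not pass (edgeR adjusted p = 0.0899), and it passed with DESeq2 (0.00786), without the filter on low counts (0.0348) and without library 2 labelled Bmal1-/- (0.0149). The last compares the 1 higher library with 3 wild-type libraries, with its spread taken from wild type. S100a6 and S100a10 are short, at 783 and 685 bases. Short genes as a whole had a median log2 deviation of 0.172 in callosum library 1 labelled Bmal1-/- and of -0.00919 in library 2, against -0.127 to -0.0268 in the wild-type libraries. The part of transcript length in these results was not tested.

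Of the other genes of this group, Lgals1, which encodes the sugar-binding protein galectin-1, stood at 20.0 and 19.8 CPM in callosum labelled Bmal1-/- and 16.9, 15.5 and 16.4 CPM in wild type. Its groups did not overlap, and its log2 fold change of 0.29 ± 0.12 (SE) did not pass (edgeR adjusted p = 0.334). Log2 fold changes were 0.42 for the matrix protein gene Thbs1, 0.27 for Tnc, which encodes tenascin C, 0.18 for the growth cone gene Gap43, -0.12 for Anxa2 and -0.17 for the stress-response gene Nupr1. Anxa1, which encodes an annexin with anti-inflammatory action, had no count in either library labelled Bmal1-/- and 0, 0 and 3 counts in wild type.

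The genes linked to inflammation and to ischaemia showed no common direction in the callosum. Of the 4 inflammation-linked genes 0 were called, 2 were above 0 and 2 below, and the median log2 fold change was -0.14. Ggta1, which adds alpha-galactose to sugar chains, was at 0.58 ± 0.24 on the log2 scale (SE, edgeR adjusted p = 0.333), Srgn, the proteoglycan of secretory granules, 0.19, the elastic fibre gene Fbln5 -0.46, and the adhesion gene Amigo2 -0.49. Amigo2 overlaps Pced1b on the opposite strand. Of the 12 ischaemia-linked genes 8 were tested, 0 were called, 4 were above 0 and 4 below, and the median was -0.01. The 1 gene with an unadjusted p under 0.05 in the lower direction was Tm4sf1, a tetraspanin-like membrane protein gene of endothelium. It stood at 0.815 and 0.973 CPM in callosum labelled Bmal1-/-, against 1.01, 2.96 and 3.04 CPM in wild type (-1.38 ± 0.49, SE, edgeR adjusted p = 0.274). Its groups did not overlap, yet 1 wild-type library lay close to those labelled Bmal1-/-.

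Other ischaemia-linked genes in the callosum had log2 fold changes of 0.57 for Cd109, a surface protein that binds transforming growth factor beta, 0.27 for the prostaglandin synthase gene Ptgs2, -0.29 for the sphingosine kinase gene Sphk1, -0.31 for Cd14, a receptor for bacterial lipopolysaccharide, and -0.47 for the transglutaminase gene Tgm1. None passed the edgeR test. Ptx3, a secreted pentraxin, was too low to test, at 10 and 10 counts in callosum labelled Bmal1-/- and 6, 3 and 0 counts in wild type. Emp1 had 5 and 9 counts against 12, 8 and 9 in wild-type callosum, and the glycosyltransferase gene B3gnt5 3 and 5 counts against 4, 3 and 2. The transporter gene Slc10a6 had no count in any of the 5 callosum libraries.

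Markers of the cell types in the callosum were summed over lists of marker genes. The 15 general astrocyte markers summed to 3784 and 4622 CPM in the libraries labelled Bmal1-/-, on both sides of the wild-type range of 3987 to 4234 CPM, with a median log2 fold change of -0.05. By edgeR 3 of the 15 reached an unadjusted p under 0.05, 2 higher and 1 lower. The lower was Aldh1l1, a folate enzyme of astrocytes, the only one called (-0.55 ± 0.10, SE, edgeR adjusted p = 0.0491). The 15 microglia markers summed to 579 and 607 CPM against 514 to 563 CPM in wild type, where the groups did not overlap. Of the 14 microglia markers tested 0 were called by edgeR, 10 had a log2 fold change above 0, and 4 reached an unadjusted p under 0.05, all higher, with a median log2 fold change of 0.16. Infiltrating immune cell markers summed to 1.83 and 2.09 CPM against 1.04 to 1.75 CPM in wild type, with Ccr2, Cd3d and Cd8a at 0 in every callosum library. Endothelial markers summed to 199 and 232 CPM against 158 to 222 CPM, and mural and fibroblast markers to 138 and 203 CPM against 180 to 248 CPM. Of the 11 mural and fibroblast markers tested 0 were called by edgeR and 3 reached an unadjusted p under 0.05, all lower, with a median log2 fold change of -0.36.

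Markers of tissue next to the callosum had values mostly below those of wild type, with 0 called by edgeR. All 12 striatal neuron markers had a log2 fold change below 0 (median -1.28, summed level 1124 and 1420 CPM against 1347 to 3796 CPM in wild type, 1 at an unadjusted p under 0.05), as did all 6 choroid plexus markers tested (median -1.37, 9.39 and 12.6 CPM against 19.8 to 151 CPM, 2 at an unadjusted p under 0.05). Of the 9 ependymal markers tested, 8 had a log2 fold change below 0 and 1 above (median -0.61). A single one of them, lower, reached an unadjusted p under 0.05. Ependymal markers summed to 91.6 and 115 CPM against 73.6 to 151 CPM in wild type, so the sums overlapped. Oligodendrocyte markers summed to 21555 and 29538 CPM against 18732 to 28552 CPM, and neuron markers to 12865 and 14381 CPM against 11768 to 15728 CPM. The part of tissue content in the differences of the reactive genes was not tested.

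In neurospheres, 0 of the 31 genes tested were called between the libraries labelled Bmal1-/- and wild type with edgeR, where 0.00716% of all genes were called. The same count of 0 was found under every other setting run, DESeq2 and limma-voom included. The 1 gene with an unadjusted p under 0.05 was S1pr3, against 3.02% of all genes. The log2 fold change was above 0 for 15 and below 0 for 16, with a median of -0.02. Groups did not overlap for 3 genes (9.68%), 2 of them higher and 1 lower, against 12.1% of all genes, 6.23% higher and 5.83% lower.

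S1pr3 stood at 24.5, 15.9 and 16.4 CPM in neurospheres labelled Bmal1-/-, against 11.2, 14.1 and 10.7 CPM in wild type. Its groups did not overlap, and library 1 labelled Bmal1-/- was the highest. Its log2 fold change was 0.66 ± 0.24 (SE, edgeR adjusted p = 0.798), and 0.43 ± 0.17 without it. The other genes whose groups did not overlap were Emp1, an epithelial membrane protein gene, and Ggta1. Emp1 stood at 52.2, 50.4 and 53.0 CPM in neurospheres labelled Bmal1-/-, against 38.8, 44.9 and 45.0 CPM in wild type (0.27 ± 0.15, adjusted p = 0.798). Ggta1 stood at 14.3, 13.1 and 13.7 CPM against 14.8, 17.9 and 18.8 CPM in wild-type neurospheres (-0.33 ± 0.18, adjusted p = 0.798). Emp1 was thus higher and Ggta1 lower in the libraries labelled Bmal1-/-, neither past the threshold.

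The short S100 and galectin genes were highest in neurosphere library 1 labelled Bmal1-/-, the library with a surplus of short genes. S100a6 stood at 9.22, 2.43 and 3.11 CPM in neurospheres labelled Bmal1-/-, against 2.44, 2.40 and 1.78 CPM in wild type, and S100a10 at 199, 71.3 and 70.4 CPM against 77.0, 61.8 and 51.7 CPM. The groups overlapped for both, and library 1 labelled Bmal1-/- alone stood far above the rest. The log2 fold changes were 1.15 ± 0.51 for S100a6 and 0.84 ± 0.41 for S100a10 (SE, edgeR adjusted p = 0.798 for both). Without library 1 labelled Bmal1-/- they were 0.32 ± 0.28 and 0.16 ± 0.17. Lgals1 stood at 788, 317 and 327 CPM against 405, 321 and 296 CPM in wild-type neurospheres. Its log2 fold change was 0.48 ± 0.36 with library 1 and -0.08 ± 0.15 without it. Clcf1 stood at 21.3, 10.2 and 7.21 CPM in neurospheres labelled Bmal1-/-, against 10.9, 6.68 and 5.40 CPM in wild type, and the groups overlapped (0.75 ± 0.44, and 0.18 ± 0.32 without library 1). Gap43 stood at 60.1, 40.0 and 39.9 CPM against 45.7, 23.7 and 29.1 CPM in wild-type neurospheres (0.51 ± 0.28, adjusted p = 0.798). In each group 1 library was well above the other two, so the groups overlapped. Ptgs2 stood at 1.57, 3.30 and 2.49 CPM against 2.71, 4.33 and 4.67 CPM in wild-type neurospheres (-0.67 ± 0.36, adjusted p = 0.798), also with overlap.

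The long genes of the STAT3 pathway were lowest in the same library. Stat3 stood at 262, 360 and 373 CPM in neurospheres labelled Bmal1-/-, against 367, 395 and 407 CPM in wild type. Il6st stood at 62.3, 153 and 169 CPM against 157, 176 and 173 CPM, and Lifr at 76.4, 146 and 148 CPM against 135, 164 and 166 CPM in wild type. Library 1 labelled Bmal1-/- was the lowest for all 3 genes, and the groups overlapped. Log2 fold changes were -0.23 ± 0.19 for Stat3, -0.40 ± 0.34 for Il6st and -0.33 ± 0.27 for Lifr (SE, edgeR adjusted p = 0.798 for each). Without library 1 labelled Bmal1-/- they were -0.09 ± 0.09, -0.07 ± 0.10 and -0.08 ± 0.11. Osmr stood at 14.99, 13.6 and 13.8 CPM in neurospheres labelled Bmal1-/-, against 27.6, 15.01 and 12.7 CPM in wild type, and Socs3 at 19.02, 15.02 and 14.2 CPM against 11.04, 20.8 and 13.7 CPM. For both the wild-type libraries spread more widely than those labelled Bmal1-/- (log2 fold changes -0.39 ± 0.30 for Osmr and 0.08 ± 0.27 for Socs3).

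Marker sums also differed in that library. The 15 microglia markers summed to 327, 137 and 76.1 CPM in neurospheres labelled Bmal1-/-, against 135, 127 and 121 CPM in wild type, so that library 1 labelled Bmal1-/- was the highest of the 6 by far. The 14 mural and fibroblast markers summed to 75.7, 58.9 and 65.2 CPM in neurospheres labelled Bmal1-/-, against 45.0, 41.1 and 39.7 CPM in wild type, without overlap, although 8 of the 11 tested had a log2 fold change below 0. By edgeR 0 markers of either list were called, and at an unadjusted p under 0.05 there were 0 microglia markers and 2 mural and fibroblast markers, both higher. The 15 astrocyte markers summed to 7529, 9606 and 9903 CPM in neurospheres labelled Bmal1-/-, against 9485, 9998 and 9731 CPM in wild type. The part of transcript length and of other cell types in the neurosphere values was not tested.

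**Figure D3:**
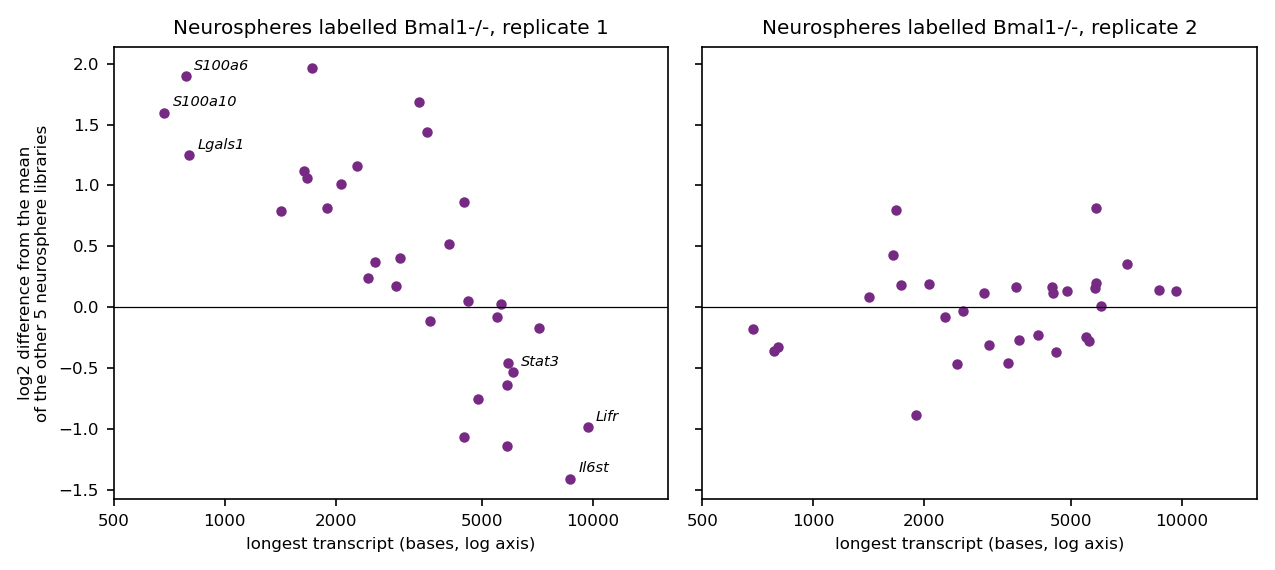
Log2 deviation of each gene from the mean of the other neurosphere libraries, against the length of its longest transcript on a log axis, in library 1 (left) and library 2 (right) labelled Bmal1-/-. In library 1, S100a6 (783 bases), S100a10 (685 bases) and Lgals1 (800 bases) lie at 1.90, 1.60 and 1.25, and Il6st (8678 bases) and Lifr (9655 bases) below 0.

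Of the genes called in the callosum, Serpina3n stood at 106, 66.3 and 35.5 CPM in neurospheres labelled Bmal1-/-, against 71.7, 54.1 and 44.5 CPM in wild type. Both extremes lay among the libraries labelled Bmal1-/- (log2 fold change 0.29 ± 0.37, SE, edgeR adjusted p = 0.816; -0.16 ± 0.29 without library 1). Aspg had 9, 6 and 4 counts against 6, 11 and 3 in wild-type neurospheres, too few to test. The other genes not tested in neurospheres were Hspb1, Lcn2, Slc10a6, Steap4 and Tgm1. Of the 58 further genes of the STAT3 pathway, 52 were tested in neurospheres, 0 were called with edgeR and 0 reached an unadjusted p under 0.05.

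Whether the difference between genotypes itself differed between callosum and neurospheres was tested as an interaction in all 11 libraries. None of the 35 genes tested was called with edgeR, against 0.0131% of all genes. Over all genes 4.28% reached an unadjusted p under 0.05, 229 with the larger value in the callosum and 427 with the smaller. Of the 35, 5 reached it, all with the larger value in the callosum. They were Cd44 (log2 difference 2.10 ± 0.41, SE, adjusted p = 0.210), Stat3 (0.83 ± 0.22, 0.692), Ggta1 (0.89 ± 0.29, 0.978), Serpina3n (1.30 ± 0.46, 0.999) and Aspg (1.68 ± 0.64, 0.999). With DESeq2, which called 37 of all genes here, Cd44 was called (2.13, adjusted p = 0.00106). Cd44 had only 3, 13 and 8 counts in the wild-type callosum libraries. A response confined to the callosum was thus not shown for any of the 4 genes called there.

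Between the sources, wild-type libraries showed how differently callosum and neurospheres express these genes. Of 33 tested, 7 were called higher and 17 lower in wild-type callosum than in wild-type neurospheres, with a median log2 fold change of -1.07. Over all genes 85.8% were called, 42.0% as higher and 43.8% as lower. Wild-type groups did not overlap between sources for 24 of the 33 (72.7%), against 87.8% of all genes, 43.1% higher and 44.7% lower. These sources also differed in the share of unmapped reads (7.77% to 8.46% over all callosum libraries and 13.7% to 22.6% over all neurosphere libraries), and library preparation and source cannot be told apart.

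The called genes lowest in callosum relative to neurospheres were Cd44, B3gnt5, Tnc, Cd109 and Emp1. Cd44 stood at 0.205, 0.858 and 0.547 CPM in wild-type callosum, against 212, 182 and 174 CPM in wild-type neurospheres (log2 fold change -8.44 ± 0.26, SE, edgeR adjusted p = 5.51e-09). Tnc stood at 8.34, 11.2 and 7.87 CPM in wild-type callosum, against 1128, 587 and 595.7 CPM in wild-type neurospheres (-6.39 ± 0.32, adjusted p = 7.21e-08). Both genes were thus abundant in the cultured progenitors and low in tissue, with no overlap. B3gnt5 stood at 0.273, 0.198 and 0.137 CPM in wild-type callosum, 9 counts in all, against 36.8, 45.4 and 40.9 CPM in wild-type neurospheres. Cd109 stood at 0.547, 1.25 and 1.64 CPM against 113, 83.2 and 86.5 CPM in neurospheres (-6.35 ± 0.28), and Emp1 at 0.820, 0.528 and 0.616 CPM against 31.9, 37.02 and 37.1 CPM (-5.74 ± 0.19). The fitted sizes for B3gnt5 (-7.61 ± 0.23) and Cd44, which had 3, 13 and 8 counts in wild-type callosum, rest on counts near the floor and are uncertain. Those for Emp1 (12, 8 and 9 counts in wild-type callosum) and Cd109 (8, 19 and 24 counts) rest on low counts too.

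The called genes highest in callosum relative to neurospheres were Aspg, Srgn, Hspb1, Gap43 and S100a6. Aspg stood at 3.49, 5.08 and 5.34 CPM in wild-type callosum, against 0.262, 0.485 and 0.130 CPM in wild-type neurospheres (3.96 ± 0.40, adjusted p = 9.69e-06). Gap43, which neurons use in growing axons, stood at 191, 187 and 207 CPM in wild-type callosum, against 37.6, 19.6 and 24.0 CPM in wild-type neurospheres (2.85 ± 0.22, adjusted p = 1.24e-06). These groups were far apart. Srgn stood at 4.58, 5.94 and 4.65 CPM in wild-type callosum and 0.524, 0.264 and 0.303 CPM in wild-type neurospheres (3.77 ± 0.32). Hspb1 stood at 2.87, 2.24 and 2.33 CPM in wild-type callosum and 0.306, 0.353 and 0.303 CPM in neurospheres (2.93 ± 0.31), and S100a6 at 4.85, 9.50 and 6.64 CPM and 2.01, 1.98 and 1.47 CPM (1.94 ± 0.29). The neurosphere values of Aspg, Srgn and Hspb1 lay near the floor of 3 counts, so the sizes of their differences are uncertain.

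Of the 4 STAT3 pathway genes among the 37, 3 were called lower in wild-type callosum than in wild-type neurospheres. Log2 fold changes were -2.07 ± 0.10 for Stat3, -1.07 ± 0.11 for Il6st and -3.07 ± 0.12 for Lifr. Socs3 did not pass (-0.54 ± 0.25, SE, edgeR adjusted p = 0.0715). Osmr (-3.54 ± 0.40) and Clcf1 (-1.88 ± 0.31) were lower too. The 58 further genes of the pathway went both ways. Of 51 tested, 22 were called higher in wild-type callosum and 21 lower, with a median log2 fold change of 0.15. Serpina3n stood at 15.1, 16.0 and 15.3 CPM in wild-type callosum, against 59.0, 44.6 and 36.7 CPM in wild-type neurospheres (-1.60 ± 0.17, adjusted p = 1.58e-05). S1pr3 had a fitted difference of -0.00 ± 0.18 and did not pass. Every wild-type neurosphere library thus lay above every wild-type callosum library for Serpina3n.

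**Figure D4:**
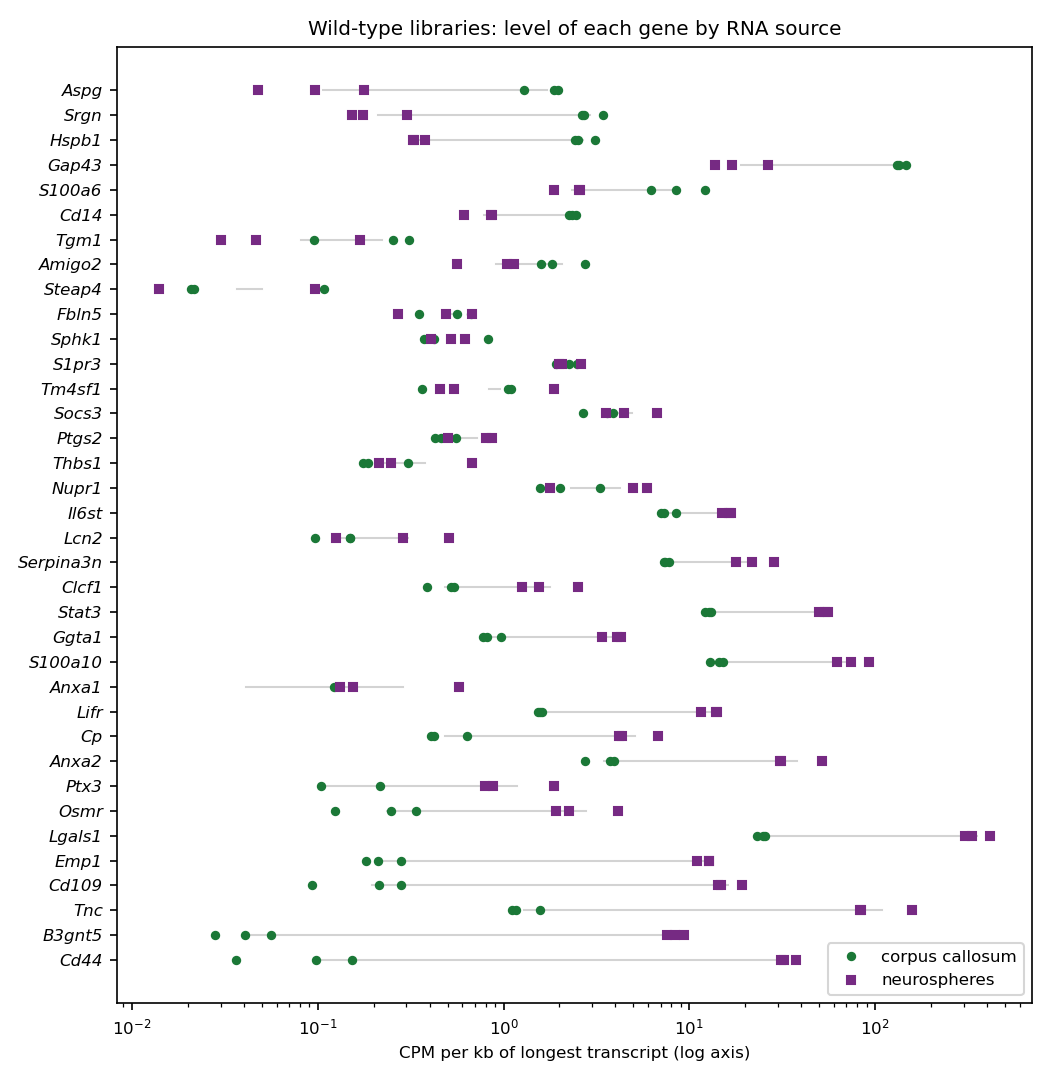
Levels in wild-type callosum and wild-type neurospheres, in CPM per kb of the longest transcript on a log axis, with points for libraries and a line joining the means of each gene (libraries with no count, and Slc10a6, are not drawn). Cd44, B3gnt5 and Tnc, at the bottom, are much lower in callosum, and Aspg, Srgn and Gap43, near the top, higher.

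Per kilobase of the longest transcript, levels could be ordered between genes. In wild-type callosum Gap43 was highest at 132 to 146 CPM per kb, Lgals1 second at 23.3 to 25.6 and S100a10 next at 12.9 to 15.1 CPM per kb. Stat3 followed at 12.1 to 13.0, S100a6 at 6.20 to 12.1, Il6st at 7.01 to 8.51 and Serpina3n at 7.32 to 7.74 CPM per kb. From S100a10 down to Serpina3n, the ranges of neighbours in this order overlapped. Cd44 was 33rd of the 37, at 0.0365 to 0.153 CPM per kb. In wild-type neurospheres Lgals1 was highest at 305 to 417 CPM per kb, followed by Tnc at 82.7 to 159, S100a10 at 62.2 to 92.5 and Stat3 at 50.02 to 55.5. The ranges of Tnc and S100a10 overlapped. There Cd44 was 6th, at 31.1 to 37.7 CPM per kb, and Serpina3n 7th, at 17.8 to 28.6 CPM per kb.

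The genes with the pattern most like that of each called gene were found by the Pearson correlation of log2 CPM over the 11 libraries, after the mean of each source was subtracted. This describes libraries that share their genotype labels, and library 1 of the neurospheres labelled Bmal1-/-, with its surplus of short genes, is among them. For Serpina3n they were Aspg (0.850), S100a10 (0.814) and S100a6 (0.789), and for Aspg they were Serpina3n, Cd44 (0.786) and Socs3 (0.723). For Stat3 they were Ggta1 (0.746), Il6st (0.724) and B3gnt5 (0.695), and for S100a6 they were S100a10 (0.916), S1pr3 (0.863) and Clcf1 (0.822).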

How the data were processed

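The authors deposited raw read counts per gene, and the counts that ignored strand were used. Per the submitters' processing notes reads were aligned with STAR 2.7.1a to mm10. The sources used here do not give the annotation behind the counts. Per the labels' protocols, RNA was selected by oligo-dT or depleted of rRNA and sequenced on a BGISEQ-500. Of the first 4 rows, which name no gene, none entered library sizes or tests. Library totals were 17450270 to 19717848 counts.

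Groups came from the sample titles. Each comparison used edgeR 4.0.16 in R 4.3.3 (TMM scaling, filterByExpr, robust quasi-likelihood F test, two-sided) with Benjamini-Hochberg adjustment over all genes tested. All comparisons but the interaction were also tested on simulated data. SE is the log2 fold change over the square root of F. CPM are scaled within the libraries of a comparison. Alternatives were RLE scaling, no filter, a filter at 1 CPM, DESeq2 1.42.0, limma-voom (limma 3.58.1), a replicate block, 1 model of 11 libraries and leaving out each library. Replicate pairs differed by far more than sampling noise (chi-square per degree of freedom 6.85 to 132). Transcript lengths, shared 50-base stretches and opposite-strand overlaps came from GENCODE M21 and gene positions from RefSeq GRCm38.p6, the assembly of mm10. Values in every library are given for called genes, the 8 smallest p-values per genotype comparison and the STAT3 pathway, and the 5 largest called differences each way between sources. Tm4sf1, Lgals1 and genes with too few counts were added after their values were seen. The genes and lists were chosen with earlier results of these data known.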

Additional observations from a re-analysis of the deposited data

How the results depend on the processing

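In the callosum the count of genes called higher was 4 with RLE scaling, limma-voom and a filter at 1 CPM, 5 without a filter and with DESeq2, 1 with a replicate block, 0 in the single model of 11 libraries and 1 to 3 when 1 library was left out, against 4 in the reported fit. The count called lower was 0 in all of these. Over all genes, in either direction, 129 were called in the reported fit, 135 with RLE scaling, 112 with limma-voom and 125 with the 1 CPM filter. That number was 224 without a filter, 321 with DESeq2, 131 with a replicate block and 33 in the single model. Leaving out wild-type library 1, 2 or 3 gave 107, 73 and 27. Of 48 values of the 4 called genes under 12 alternatives, 29 kept the call and 0 changed sign. Serpina3n kept it in 11 of 12, Aspg in 7, S100a6 in 6 and Stat3 in 5. The interaction called 1 gene with DESeq2, Cd44, and 0 with edgeR, where 37 and 2 of all genes were called. Neurosphere counts stayed at 0, and all 288 values of the genes called between wild-type sources kept their call. Replicate numbers were not taken to pair the samples in the reported fit. Deviations of same-numbered callosum libraries correlated at 0.0347 and 0.00329, and those of neurospheres at 0.276, -0.00265 and 0.284. Libraries with different numbers were not compared in this way, so these values cannot exclude pairing. The replicate block also ended the calls of Aspg (adjusted p = 0.0548), Stat3 (0.0627) and S100a6 (0.0648) in the callosum. The cause of these changes was not tested. With 2 libraries labelled Bmal1-/- in the callosum, small differences could not be detected, and large ones in genes with few counts could go uncalled. Cd44, for example, had a fitted 3.77-fold difference that did not pass (edgeR adjusted p = 0.125).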
